A study of Mus musculus with 45 samples.

Results

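Axin2, Nkd1, Sp5, Lef1 and Cdx1 are 5 genes whose transcription is widely used to read canonical Wnt signalling, and their levels were followed in mouse embryonic stem cells (ESCs) and in the embryoid bodies (EBs) they formed. The members were chosen by gene symbol, and they and the lists of genes below were chosen with earlier results of these data known. The array held 10 probe sets annotated to them, out of 45037, and each gene was represented by the probe set with the highest mean over all arrays, so that 5 of the 18193 genes measured are described here. The cells were of strain 129 and male, and came as 3 lines: wild type (WT), a scrambled control (SCR), and a line that the labels call Strip2 silenced (KD), here the KD-labelled line. ESCs of every line and their EBs, grown by hanging drop for 4, 8, 12 and 16 days, were hybridised to Affymetrix arrays, 3 for each line and stage and 45 in all. The silencing construct and whether a line is a single clone are not given in the sources used here. Whether the 3 arrays of a group stand for separate cultures is not stated in the labels; the p-values below therefore reflect variation among these samples alone, and it could be technical.

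In canonical Wnt signalling, secreted Wnt proteins bind Frizzled and LRP receptors at the cell surface and stop a cytoplasmic destruction complex from degrading beta-catenin. Beta-catenin then enters the nucleus and joins DNA-bound TCF/LEF factors to switch on target genes, some of which feed back on the pathway. In ESCs this pathway bears on self-renewal, and in the early embryo it is required for the primitive streak and for mesoderm. Axin2 encodes a scaffold of the destruction complex and Nkd1 a Dishevelled-binding protein; both are feedback inhibitors. Lef1 encodes a DNA-binding partner of beta-catenin, Sp5 a zinc-finger factor induced by Wnt, and Cdx1 a caudal-type homeobox factor that acts in axial patterning.

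Promoters are shown because 4 of the members were high together in the controls at day 4. RefSeq sequences (build GRCm38.p6) of the 250 bases before the transcript start were found for 4 of the 5 members, from 7 starts. The motif searched on both strands was the TCF/LEF-type sequence CTTTG followed by AA, AT, TA or TT, and its matches are in capitals; a match on the minus strand reads as its reverse complement. The first sequence is Sp5 at chr2:70474673-70474922, the second the fourth of the Lef1 starts at chr3:131156044-131156293, the third Axin2 at chr11:108920099-108920348 and the last Nkd1 at chr8:88527383-88527632, all on the plus strand.
Sp5: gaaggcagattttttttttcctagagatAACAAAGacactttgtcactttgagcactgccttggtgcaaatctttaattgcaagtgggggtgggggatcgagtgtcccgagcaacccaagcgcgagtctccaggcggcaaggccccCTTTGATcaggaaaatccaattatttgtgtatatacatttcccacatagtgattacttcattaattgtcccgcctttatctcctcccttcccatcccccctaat
Lef1: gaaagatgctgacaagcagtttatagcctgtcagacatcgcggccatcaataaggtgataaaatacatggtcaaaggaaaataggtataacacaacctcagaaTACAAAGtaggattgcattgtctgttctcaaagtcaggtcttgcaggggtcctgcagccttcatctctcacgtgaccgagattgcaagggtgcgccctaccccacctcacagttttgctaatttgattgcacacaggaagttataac
Axin2: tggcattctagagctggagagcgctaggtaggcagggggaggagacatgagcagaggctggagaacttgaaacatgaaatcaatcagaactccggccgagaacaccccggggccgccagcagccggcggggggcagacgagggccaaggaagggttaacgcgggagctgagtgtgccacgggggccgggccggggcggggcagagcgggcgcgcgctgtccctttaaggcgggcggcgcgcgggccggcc
Nkd1: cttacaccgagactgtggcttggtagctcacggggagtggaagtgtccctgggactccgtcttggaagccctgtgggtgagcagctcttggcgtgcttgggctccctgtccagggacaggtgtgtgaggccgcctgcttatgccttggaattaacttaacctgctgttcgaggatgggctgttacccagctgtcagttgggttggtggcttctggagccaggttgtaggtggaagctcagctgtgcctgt
The Sp5 promoter held 2 matches, CTTTGTT on the minus strand at positions -222 to -216 from the start and CTTTGAT on the plus strand at -104 to -98. The Lef1 start shown held CTTTGTA on the minus strand at -147 to -141, and the other Lef1 starts, Axin2 and Nkd1 held none in this window. The windows of the other Lef1 starts lie upstream of the one shown, beginning at chr3:131110047, chr3:131110073 and chr3:131112541. Of all 32851 promoters in the table, 14.8% held at least 1 match and 1.43% held 2 or more. The shorter core CTTTG was in 48.6% of them at least once and in 0.773% of them 4 or more times. It was in the Sp5 promoter 4 times, and in 2 of the 4 members with a promoter at any start. These matches describe the letters of short windows, and no binding was measured.

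Before the results, the labels were checked. The probe set of Strip2 was dim, with group means of 2.57 to 4.85 (log2 signal), below every array median. It read at most 5.6, in an SCR array of day 16. Its group means in KD-labelled cells were 2.72 in ESCs and 3.04, 3.18, 3.75 and 3.28 at days 4, 8, 12 and 16. In SCR they were 2.85, 2.57, 3.14, 4.67 and 4.85, and in WT 2.7, 2.73, 3, 3.12 and 2.88, in the same order. KD-labelled cells were below SCR at day 12 (log2 difference -0.92, adjusted p = 1e-04) and day 16 (-1.56, 8.6e-09), but were not called below WT at any stage and were higher at day 12 (0.63, 0.0061), all by limma. As ESCs, all 3 lines expressed pluripotency genes: the mean over 8 markers was 11.52 in WT, 11.13 in SCR and 11.4 in KD-labelled cells. Array medians were 5.02 to 5.18, and arrays of a group correlated at 0.9888 to 0.9961 over probe sets.

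The main pattern was a rise to day 4 that was called in both control lines and not in KD-labelled cells. From ESC to day 4, Axin2, Nkd1, Sp5 and Lef1 rose in WT by 2.45 to 3.11 on the log2 scale and in SCR by 1.02 to 3.27. In KD-labelled cells none of the 5 genes was called changed over the same interval, and at day 4 these 4 genes were 2.17-fold to 12.7-fold lower than in SCR. For Lef1 the difference from SCR in the rise itself was not called (-0.44, limma adjusted p = 0.59). Cdx1 stayed dim and close to level in every line. Calls are those of limma over all 18193 genes at a Benjamini-Hochberg adjusted p under 0.05, and all levels are log2 signals as deposited.

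**Figure D1:**
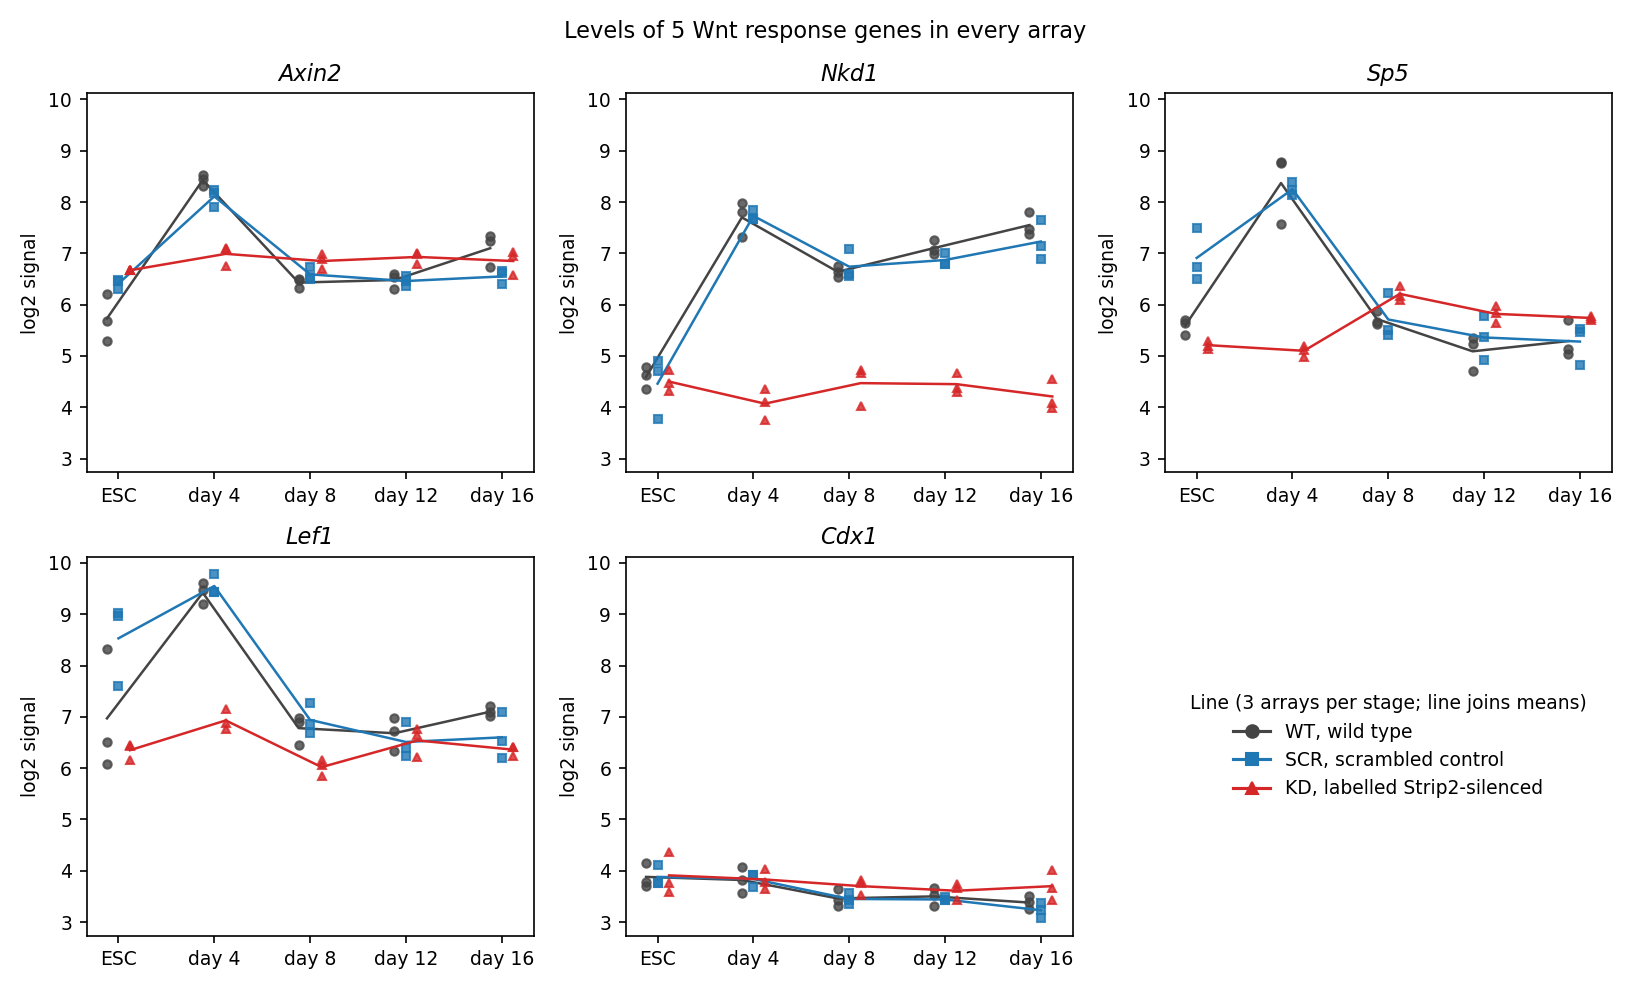
Log2 signal of the 5 genes (vertical axis) in every array against stage (horizontal axis), with points for arrays and lines joining the means of 3 arrays, for WT (grey circles), SCR (blue squares) and KD-labelled cells (red triangles). In WT and SCR the day 4 means of Axin2, Nkd1, Sp5 and Lef1 are 7.7 to 9.55, while in KD-labelled cells they are 4.07 to 6.99, and Cdx1 lies between 3.23 and 3.91 throughout.

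Of the feedback inhibitors, Axin2 peaked at day 4 in both controls. Its 3 WT arrays read 5.69, 6.21 and 5.29 in ESCs, 8.32, 8.44 and 8.53 at day 4, and 6.48, 6.32 and 6.49 at day 8. In SCR they read 6.46, 6.3 and 6.48 in ESCs, 8.24, 7.9 and 8.18 at day 4, and 6.5, 6.53 and 6.73 at day 8. In both controls every day 4 array was thus above every ESC and every day 8 array. In KD-labelled cells Axin2 read 6.67 in each of the 3 ESC arrays, 7.09, 6.76 and 7.11 at day 4, and 6.98, 6.89 and 6.69 at day 8. Those day 4 arrays lay above the KD-labelled ESC arrays but below all 6 control arrays of day 4. The rise to day 4 was 2.7 ± 0.16 (log2, SE, n = 3 against 3, limma adjusted p = 6.9e-17) in WT and 1.69 ± 0.16 (1.9e-11) in SCR, and the KD-labelled change of 0.32 ± 0.16 was not called (0.15).

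Nkd1, the other feedback inhibitor, had the widest difference between lines at day 4. Its arrays in ESCs overlapped across lines, with means of 4.59 ± 0.22 in WT, 4.46 ± 0.6 in SCR and 4.5 ± 0.2 in KD-labelled cells (SD, n = 3). At day 4 it read 7.31, 7.99 and 7.8 in WT and 7.85, 7.67 and 7.67 in SCR. In KD-labelled cells it read 4.35, 4.1 and 3.75, so the groups were more than 2 log2 units apart with no overlap. In the controls Nkd1 remained above its ESC level: the means at days 8, 12 and 16 were 6.64, 7.1 and 7.55 in WT and 6.74, 6.87 and 7.23 in SCR. In KD-labelled cells its means stayed between 4.07 and 4.5 at all 5 stages. All 15 of those arrays were at or below 4.73, and all 24 control EB arrays were at or above 6.53.

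Of the transcription factors, Sp5 had a short pulse in the controls. In WT it read 5.64, 5.71 and 5.41 in ESCs, then 7.57, 8.78 and 8.76 at day 4, and 5.66, 5.63 and 5.88 at day 8. SCR ESCs already stood higher, at 7.49, 6.74 and 6.49, before 8.13, 8.23 and 8.39 at day 4 and 6.23, 5.4 and 5.51 at day 8. Each day 4 array of the controls was above each of their arrays at other stages. In KD-labelled cells Sp5 read 5.3, 5.19 and 5.13 in ESCs and 5.12, 5.2 and 4.98 at day 4, and then 6.37, 6.17 and 6.1 at day 8. That later step, 1.11 ± 0.26 (log2, SE, n = 3 against 3, limma adjusted p = 0.0024), was the only called change between neighbouring stages of any member in KD-labelled cells, where 12.9% of all genes were called over the same days.

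Lef1 reached the highest signals of the 5 probe sets. It read 9.2, 9.6 and 9.47 at day 4 in WT and 9.44, 9.44 and 9.78 in SCR, against 7.15, 6.88 and 6.76 in KD-labelled cells, with no overlap. Its ESC values spread widely: 6.51, 8.32 and 6.09 in WT and 8.96, 9.03 and 7.6 in SCR, but 6.44, 6.15 and 6.45 in KD-labelled cells. The second WT array and the third SCR array therefore stood apart from the others of their groups, and changes of Lef1 counted from ESCs carry that spread. The SCR rise of 1.02 ± 0.34 (log2, SE, n = 3 against 3, limma adjusted p = 0.013) was not called without the third SCR ESC array (0.56, adjusted p = 0.2), nor without the third SCR day 4 array (0.91, 0.057). By day 8 Lef1 was at 6.78 ± 0.28 in WT and 6.94 ± 0.3 in SCR, with changes from day 4 of -2.65 and -2.62. In KD-labelled cells its mean was also highest at day 4, with 6.35 in ESCs, 6.93 at day 4 and 6.02 at day 8. Those arrays did not overlap at either step, but the changes of 0.58 and -0.91 were not called (limma adjusted p = 0.23 and 0.071).

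Cdx1 showed no pulse. Its group means ran from 3.23 in SCR at day 16 to 3.91 in KD-labelled ESCs, where it was brighter than 13.2% and 21.2% of all genes of those groups. At day 4 it read 3.57, 3.81 and 4.07 in WT, 3.92, 3.92 and 3.69 in SCR and 3.79, 4.04 and 3.65 in KD-labelled cells, which overlapped. Between neighbours in the order of its 15 group means no gap was larger than the spread. Its paralog Cdx2, named after its values were seen, did rise in WT by day 4, from 5.21 ± 0.26 to 7.76 ± 0.42 (SD, n = 3), and was 5.27 ± 0.06 in KD-labelled EBs.

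From ESC to day 4, 4 of 5 members rose in WT and in SCR, where 41.7% and 42.5% of all genes were called in either direction. The median change of the 5 members was 2.7 in WT and 1.34 in SCR on the log2 scale, against 0 and -0.05 over all genes. In KD-labelled cells 0 of 5 were called, by limma, where 23.9% of all genes were, and no member had an adjusted p below 0.15. With only the arrays compared in the fit, however, a member was called in KD-labelled cells over this step. From day 4 to day 8 the same 4 genes fell in WT and in SCR, where 43.9% and 41.1% of all genes were called. The falls in WT were -2 for Axin2, -1.06 for Nkd1, -2.65 for Sp5 and -2.65 for Lef1; those in SCR were -1.52, -0.99, -2.54 and -2.62.

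At day 4 the 4 genes were lower in KD-labelled cells than in either control. Against SCR, Nkd1 differed by -3.66 ± 0.23 (log2, SE, n = 3 against 3, limma adjusted p = 5e-16), which is 12.7-fold. Sp5 differed by -3.15 ± 0.26 (7.4e-13), Lef1 by -2.62 ± 0.34 (3.3e-08) and Axin2 by -1.12 ± 0.16 (1.8e-07), in the same terms. These are differences between lines of 8.88-fold, 6.16-fold and 2.17-fold, so Axin2, the scaffold, differed least of the 4. Against WT the values were -3.63, -3.27, -2.49 and -1.44, and all 4 were called with no overlap of arrays. At this stage 42.4% of all genes were called against SCR and 39.1% against WT, so the share of genes called was high in general; the members' median difference was -2.62 and -2.49, against 0.03 and -0.01 over all genes. No member was called between SCR and WT at day 4, by limma, where 1.93% of all genes were; these controls differed most for Axin2, by -0.32 (limma adjusted p = 0.36), whose arrays did not overlap.

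Both comparisons use the same KD-labelled arrays, so they do not count as independent. Averaging all probe sets of a gene moved the Axin2 difference from SCR to -0.65 and the Nkd1 difference to -1.47, still called. In bulk samples, fewer cells that express a gene and less of its RNA per cell cannot be told apart.

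**Figure D2:**
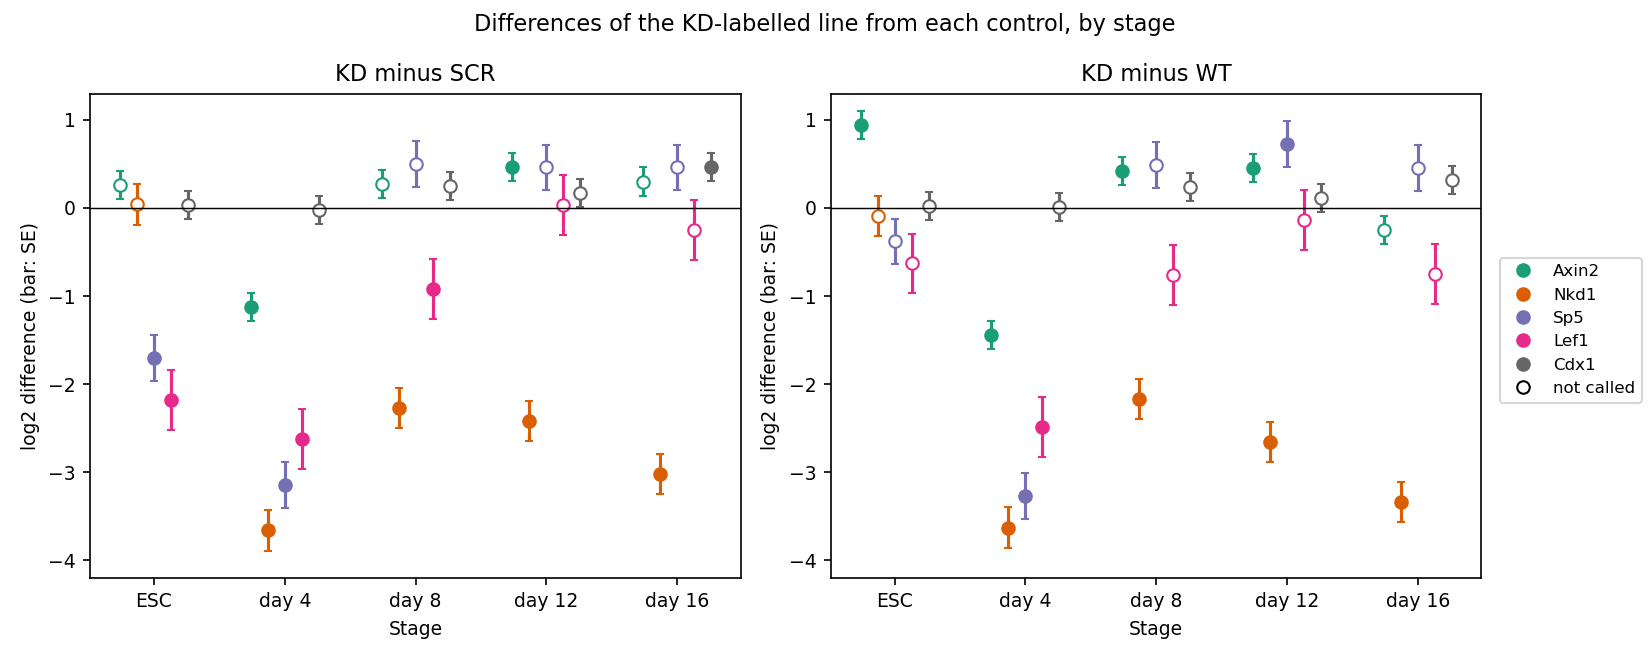
Log2 difference of KD-labelled cells from SCR (left) and from WT (right) at each stage for the 5 genes, with bars for the SE of limma; filled points were called at an adjusted p under 0.05 and open points were not. At day 4 Axin2, Nkd1, Sp5 and Lef1 lie between -1.12 and -3.66 on both sides, and at days 8 to 16 Nkd1 stays between -2.17 and -3.34 while the others lie within 1 log2 unit of 0.

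The difference between lines in the first change was itself tested. From ESC to day 4, Nkd1 changed by 3.7 less in KD-labelled cells than in SCR on the log2 scale (difference -3.7 ± 0.32, SE, n = 3 per group, limma adjusted p = 1.3e-11). The same difference was -1.45 ± 0.36 for Sp5 (0.0021), lost without the third array of every group (-1.15, 0.087), and -1.38 ± 0.22 for Axin2 (5.9e-06). For Lef1 it was -0.44 ± 0.48 and not called (0.59); its level in ESCs was already below that of SCR in the KD-labelled line. Against WT all 4 were called, at -3.55, -2.89, -2.38 and -1.87 for Nkd1, Sp5, Axin2 and Lef1. Lef1 lost that call when the first array of every group was left out (-1.81, adjusted p = 0.068) or the third of every group (-1.26, 0.088). Among all genes 26.5% were called in this test against SCR and 29.8% against WT. A moderated F test of whether the KD-labelled difference from SCR depends on stage was past the threshold for Axin2, Nkd1, Sp5 and Lef1 and not for Cdx1 (F = 1.45, limma adjusted p = 0.3); 58.5% of all genes passed it.

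Already as ESCs the lines differed, and there the controls were not alike. Against SCR, where 23.6% of all genes were called, Sp5 was lower in KD-labelled ESCs by -1.7 ± 0.26 (log2, SE, n = 3 against 3, limma adjusted p = 2.7e-06) and Lef1 by -2.18 ± 0.34 (4.1e-06). Against WT, where 18.4% were called, neither was called (-0.38 and -0.63), and Axin2 was higher by 0.94 ± 0.16 (2.9e-05). SCR ESCs exceeded WT ESCs for Axin2 by 0.68, for Sp5 by 1.32 and for Lef1 by 1.56, with 10.2% of all genes called. Without the third WT ESC array, Axin2 (0.46, adjusted p = 0.088) and Lef1 (1.12, 0.057) lost that call, and Lef1 was then called lower in KD-labelled than in WT ESCs (-1.07, 0.029). With only the arrays of both groups in the fit, none of the 5 was called between SCR and WT ESCs.

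The spread of Sp5 and Lef1 among ESC arrays went with that of primed epiblast genes. The mean level of 6 such markers, a list chosen after the data were seen, was 9.34, 9.05 and 8.56 in the SCR arrays, 7.61, 8.34 and 7.03 in WT and 6.75, 6.6 and 6.9 in KD-labelled cells. The order of lines was the same as for Lef1, and the second WT array was the highest of its group in both. Of the list, Fgf5 was higher in SCR than in WT ESCs (2.2, limma adjusted p = 0.00067), as was Pou3f1 (1.53, 0.0059), and Otx2 was not called (0.63, 0.45). In KD-labelled EBs the mean of these markers was 8.96 at day 4 and 8.59 to 8.69 later, above all control EB groups, while Sp5 and Lef1 stayed low at day 4. The part of such a state in the members' levels was not tested.

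After day 4 the members went separate ways. Nkd1 stayed lower in KD-labelled cells, by -2.27, -2.42 and -3.02 against SCR and by -2.17, -2.66 and -3.34 against WT at days 8, 12 and 16 (log2, n = 3 against 3, largest limma adjusted p = 2.7e-10). In those comparisons 52.8%, 55.6% and 66.6% of all genes were called against SCR, and 49.9%, 50.7% and 60.8% against WT. With the probe set used, Nkd1 was the only member called at every EB stage against both controls; its further probe set 1417278_a_at was not called against SCR at days 8, 12 and 16 (-0.44, -0.36 and -0.33) or against WT at day 16 (-0.42). Of the 5 members 2 were called at each of days 8, 12 and 16 against SCR, and 2, 3 and 1 against WT, so at those stages the members' share was near or below that of all genes.

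Axin2 turned round: at day 12 it was higher in KD-labelled EBs, at 6.93 ± 0.11, than in SCR at 6.46 ± 0.1 and in WT at 6.48 ± 0.16 (SD, n = 3; differences 0.47 and 0.45, limma adjusted p = 0.011 and 0.015). It was also higher than WT at day 8 (0.42, 0.023). The day 12 difference from SCR lost the call without the first array of every group (0.47, 0.1). That from WT lost the call without the third WT array (0.36, 0.087) or the first KD-labelled array (0.41, 0.052), and the day 8 difference without the second WT array (0.37, 0.087) or the first or second KD-labelled array (0.36 and 0.4, 0.095 and 0.06). At day 16 Axin2 was back up in WT, at 7.24, 7.33 and 6.74, against 6.65, 6.61 and 6.4 in SCR and 6.95, 6.57 and 7.03 in KD-labelled cells. SCR was then called below WT (-0.55, limma adjusted p = 0.02, with 8.11% of all genes called), a call lost without the first or second WT array or the third SCR array (adjusted p of 0.11 to 0.14). The KD-labelled line was called above SCR at day 16 without its second array (0.44, 0.026) and below WT without the third WT array (-0.43, 0.022).

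Sp5 in KD-labelled EBs lay above both controls on the mean from day 8 onward. The means were 6.21 ± 0.14, 5.82 ± 0.17 and 5.74 ± 0.04 (SD, n = 3) at days 8, 12 and 16, against 5.71, 5.36 and 5.28 in SCR and 5.72, 5.09 and 5.29 in WT. Of these 6 differences only that from WT at day 12 was called (0.73, limma adjusted p = 0.016), and it was lost without the third WT array (0.54, 0.12) or the third KD-labelled array (0.65, 0.063). The day 16 difference from WT was called without the second WT array (0.65, 0.046). The differences from SCR were called without the first SCR array at day 8 (0.76, 0.02) and without the second at day 12 (0.68, 0.042). Lef1 was lower in KD-labelled cells at day 8, with 6.06, 5.85 and 6.15 against 6.68, 6.87 and 7.26 in SCR and 6.46, 6.9 and 6.97 in WT, which did not overlap. It was called against SCR (-0.92, limma adjusted p = 0.021) and not against WT (-0.76, 0.061). The first call was lost without the third SCR array (-0.75, 0.097) or the second KD-labelled array (-0.83, 0.07), and the second comparison was called without the first WT array (-0.91, 0.045). At day 12 Lef1 overlapped across lines, at 6.54 in KD-labelled cells, 6.51 in SCR and 6.68 in WT.

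Cdx1 was called once between lines, at day 16, where KD-labelled EBs read 3.43, 4.01 and 3.66 against 3.24, 3.37 and 3.07 in SCR (0.47, limma adjusted p = 0.011). The call was lost without the second KD-labelled array (0.32, 0.11) or the third SCR array (0.4, 0.058). At this stage the median of all genes itself differed by 0.17 between these lines as deposited, by 0.25 after centring each array on its median and by 0.05 after cyclic loess scaling. Relative to that shift the Cdx1 difference is smaller, and under loess it was not called.

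Along the later course of the controls few steps were called. Between days 8 and 12 no member was called in WT or SCR, by limma, where 12.5% and 10.9% of all genes were; between days 12 and 16 Axin2 rose in WT (0.63, adjusted p = 0.0058) and no member was called in SCR, with 9.52% and 11.4% of all genes. That rise was lost without the second WT day 16 array (0.51, 0.069) or the third WT day 12 array (0.54, 0.056). In KD-labelled cells no member was called in either step, where 1% and 0.495% of all genes were. Between SCR and WT EBs no member was called at days 8 and 12, by limma, where 6.99% and 14.7% of all genes were.

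From ESC to day 16 the net change differed by gene. Nkd1 ended higher in WT by 2.96 and in SCR by 2.77 (log2, limma adjusted p = 6.4e-14 and 3.6e-13). Axin2 ended higher in WT by 1.37 (1.2e-09) and in SCR showed a difference of 0.14 that was not called (0.42). Sp5 and Lef1 ended lower than in ESCs in SCR (-1.63 and -1.93), the line whose ESCs had been high; in WT they showed -0.3 and 0.13, not called, although Lef1 was called higher without the second WT ESC array (0.8, 0.014). Cdx1 ended lower by -0.5 in WT, a call lost without the third WT ESC array (-0.37, 0.071), and by -0.65 in SCR, while the median of all genes moved by -0.15 and -0.19. Of the 5 members 3 were called in WT, 4 in SCR and 0 in KD-labelled cells, by limma, where 66.2%, 71.8% and 38.1% of all genes were.

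The order of the 15 group means placed the 2 control groups of day 4 on top for Axin2, Nkd1, Sp5 and Lef1. For Axin2 the order ran from WT day 4 at 8.43 and SCR day 4 at 8.11 to SCR ESCs at 6.41 and WT ESCs at 5.73. Of the 14 gaps between neighbours, 3 were larger than the spread for Axin2: those below each of the day 4 controls and that between SCR and WT ESCs. For Nkd1 only the gap between WT at day 8 (6.64) and WT ESCs (4.59) was, which split 8 control EB groups from the 3 ESC groups and the 4 KD-labelled EB groups. For Sp5 such gaps lay below SCR day 4, below SCR ESCs and below KD-labelled day 8, and for Lef1 they lay above and below SCR ESCs. A gap counted here if it was larger than the larger SD of both groups and their arrays did not overlap.

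**Figure D3:**
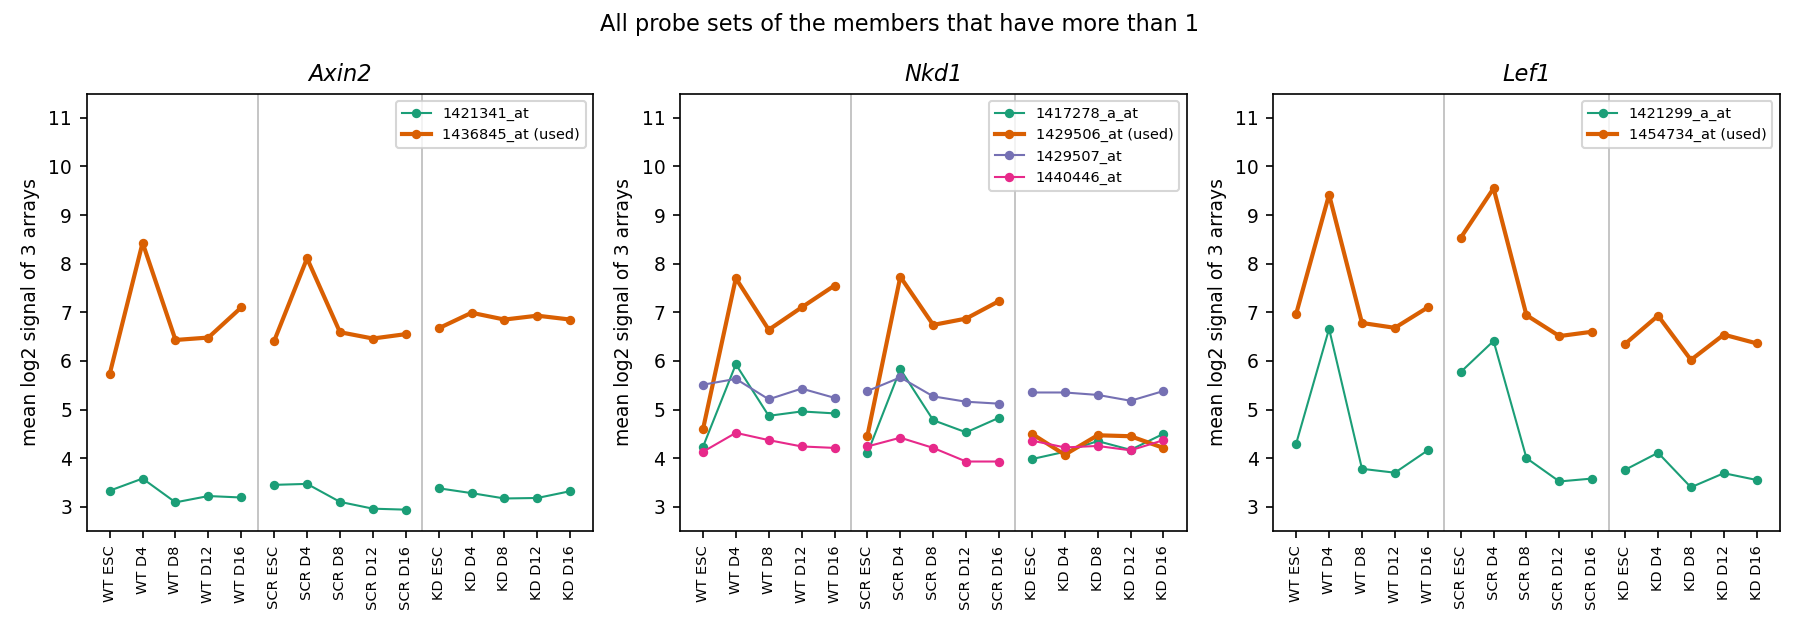
Mean log2 signal of 3 arrays (vertical axis) in the 15 groups (horizontal axis) for every probe set of Axin2, Nkd1 and Lef1, with a thick line for the probe set used. The second Lef1 probe set and 1 of 3 further Nkd1 probe sets have the same day 4 peak in WT and SCR, while the further Axin2 probe set runs between 2.94 and 3.58 and the other two of Nkd1 between 3.93 and 5.66.

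The further probe sets of a gene differed from the one used in some comparisons. The second Lef1 probe set, 1421299_a_at, differed at day 4 by -2.3 from SCR and -2.55 from WT (limma adjusted p over all probe sets 1e-07 and 1.5e-08), and its group means followed those of the probe set used with a Pearson correlation of 0.99 over 15 groups. For Nkd1, 1417278_a_at differed by -1.7 and -1.8 (2.3e-08 and 8.8e-09) at day 4, with a correlation of 0.84. At days 8, 12 and 16 it differed from SCR by -0.44, -0.36 and -0.33, none called (0.092, 0.16 and 0.18). From WT it differed by -0.52, -0.79 and -0.42, called at days 8 and 12 (0.044 and 0.002) and not at day 16 (0.092). The Nkd1 probe sets 1429507_at and 1440446_at were close to level, with day 4 differences from SCR of -0.31 and -0.2 that were not called; 1440446_at was called higher than SCR at day 16 (0.44, 0.0097). The dim Axin2 probe set 1421341_at, with a mean of 3.24, differed by -0.18 from SCR (not called, 0.22) and by -0.3 from WT (0.036). Sp5 and Cdx1 have 1 probe set each.

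As a description over the 15 group means, which share arrays and stages, Sp5 and Lef1 ran most nearly together among the members (Pearson correlation 0.89), followed by Axin2 with Sp5 (0.75) and with Lef1 (0.68). Nkd1 correlated with Axin2 and with Lef1 at 0.42 and with Sp5 at 0.29, and with Cdx1 at -0.54. The genes most like each member were taken from 5478 genes whose group means had an SD of at least 0.5. Closest to Axin2 were Lhx1os (0.918), Amer3 (0.906), Rtl8c (0.891), Mixl1 (0.885) and Evx1os (0.879). Mixl1 encodes a homeobox factor of the primitive streak. Closest to Sp5 were Vrtn (0.958), Pgr (0.927), Wnt3 (0.923), Fgf3 (0.922) and again Mixl1 (0.918); Wnt3 is the ligand required for the streak to form.

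Closest to Lef1 were Gsdme (0.933), Fgf15 (0.93), Pgr (0.919), Septin6 (0.899) and Hmgcll1 (0.894). Nkd1, the member that stayed high, had other neighbours: Adamts3 (0.975), Lancl3 (0.972), Hoxb2 (0.969), Tbx2 (0.968) and Fundc1 (0.964). Hoxb2 and Tbx2 encode factors of patterning and of mesoderm derivatives. Closest to the dim Cdx1 were Mtfr2 (0.974), Aunip (0.974), Prpf31 (0.973), Ruvbl1 (0.972) and Exo1 (0.971), Exo1 being an exonuclease of DNA repair. The group means of Cdx1 had an SD of only 0.22, and over the 45 arrays these correlations were 0.77 to 0.784. By rank correlation the order of neighbours changed: for Axin2, Evx1os stood at 236.5 (the mean of tied ranks) and Mixl1 at 113, for Nkd1 Tbx2 stood at 169.5, and for Lef1 Hmgcll1 stood at 101. For Sp5, Wnt3 stood at 65.5, Fgf3 at 62 and Pgr at 37, while Vrtn stood at 2 and Mixl1 at 11.

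Markers of cell states also differed between lines at day 4. In the control EBs of day 4 the mean of 7 primitive streak and nascent mesoderm markers was 8.47 in WT (arrays 7.82 to 9.08) and 8.11 in SCR (7.94 to 8.27), against 5.07 in KD-labelled cells (4.97 to 5.21). All 7 rose in WT from ESC to day 4 and 6 of 7 in SCR, while 2 of 7 rose and 1 fell in KD-labelled cells. The mean of 8 pluripotency markers was 7.21 in WT (6.9 to 7.37) and 6.6 in SCR (6.53 to 6.65), against 10.65 (10.57 to 10.71) in KD-labelled cells. It stayed between 10.9 and 11.01 in KD-labelled EBs of days 8 to 16, and between 5.03 and 6.72 in the controls. Endoderm markers, in contrast, rose in all 3 lines. The mean of 6 of them in KD-labelled cells was 4.72 in ESCs and 6.58, 8.46, 9.26 and 9.04 at days 4, 8, 12 and 16. At day 16 it was 9.79 in WT and 9.9 in SCR. From ESC to day 16 all 6 rose in KD-labelled cells, by limma, where 38.1% of all genes were called. Against SCR at day 16, 3 of the 6 were higher and 3 lower. At day 4 the streak markers differed between lines in the same direction as Axin2, Nkd1, Sp5 and Lef1, and the pluripotency markers in the opposite direction. The part of such cell states in the members' levels was not tested.

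At the later days mesenchyme markers were high in the controls. The mean of 5 mesenchyme markers was 11.12 to 11.62 in control EBs of days 8 to 16 and 5.6 to 6.3 in KD-labelled ones. The Nkd1 probe set used was split in the same way over those days. Its further probe set 1417278_a_at was not called against SCR at those days. Any link between Nkd1 and these markers was not tested. The mean of 5 cardiac muscle markers was higher in SCR (10.81 to 10.92) than in WT (7.16 to 8.15) at those stages, whereas no member but Axin2 at day 16 was called between these lines. Markers of intestinal epithelium, in which Cdx1 is known to act, had day 4 means of 3.92 in WT, 3.89 in SCR and 3.99 in KD-labelled cells. At day 16 they were at 6.98 in WT and 7.47 in SCR against 4.05 in KD-labelled cells, where 5 of 5 were lower than in each control. At that stage Cdx1 was at 3.38 in WT and 3.23 in SCR, its lowest means in those lines.

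Beyond the members, 18 of 20 other listed symbols of Wnt target genes were measured. The symbols missing were T and Tbxt, which are names of the same gene. From ESC to day 4, 12 of these 18 rose in WT and 2 fell, with a median of 1.02, and in SCR 9 rose and 4 fell, with a median of 0.39. In KD-labelled cells 2 rose and 5 fell, with a median of -0.07. Over this step 41.7%, 42.5% and 23.9% of all genes were called in WT, SCR and KD-labelled cells. At day 4 11 of 18 were lower and 1 higher in KD-labelled cells than in SCR (median -1.06, all genes 0.03), and 13 were lower and 1 higher than in WT (-1.44, all genes -0.01). Of all genes 22.6% were higher and 19.9% lower than in SCR at day 4, 42.4% together, against which this count and those of the other lists at day 4 can be read. The higher one was Ascl2, a bHLH factor, by 1.8 and 1.12. Myc and Rnf43 were not called against SCR (0.13 and 0.34), nor was Notum (0.12). Ascl2, Myc, Rnf43 and Notum were named after their values were seen.

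Lgr5, a receptor for R-spondins, was at 7.95 ± 0.26 in WT and 8.37 ± 0.22 in SCR at day 4 and at 3.94 ± 0.46 in KD-labelled cells (SD, n = 3), a difference from SCR of -4.43 ± 0.23 (SE, limma adjusted p = 5.6e-18). Dkk1, a secreted inhibitor that blocks LRP receptors, was at 9.05 ± 0.29, 9.36 ± 0.07 and 5.92 ± 0.11 in the same order. It also rose in KD-labelled cells, by 1.16 from ESCs, less than the 4.97 in WT. At days 8, 12 and 16 its means in KD-labelled cells were 8.28, 8.48 and 7.33. These were above those of WT (5.96, 5.11 and 5.59) and of SCR (7.42, 6.2 and 4.76). Apcdd1, a membrane inhibitor of Wnt, was at 10.58, 10.69 and 6.18 at day 4, and it fell in KD-labelled cells by -1.78, from a higher ESC level of 7.96. Bambi, a decoy receptor of the TGF-beta family, was lower than in SCR by -3.39 at day 8. At later stages calls in this list went both ways. Against SCR 5 of the 18 were higher and 5 lower at day 8, 4 and 8 at day 12, and 6 and 7 at day 16. Of all genes 28%, 31% and 39.8% were higher at those days and 24.7%, 24.6% and 26.8% lower, so both directions were common in general.

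**Figure D4:**
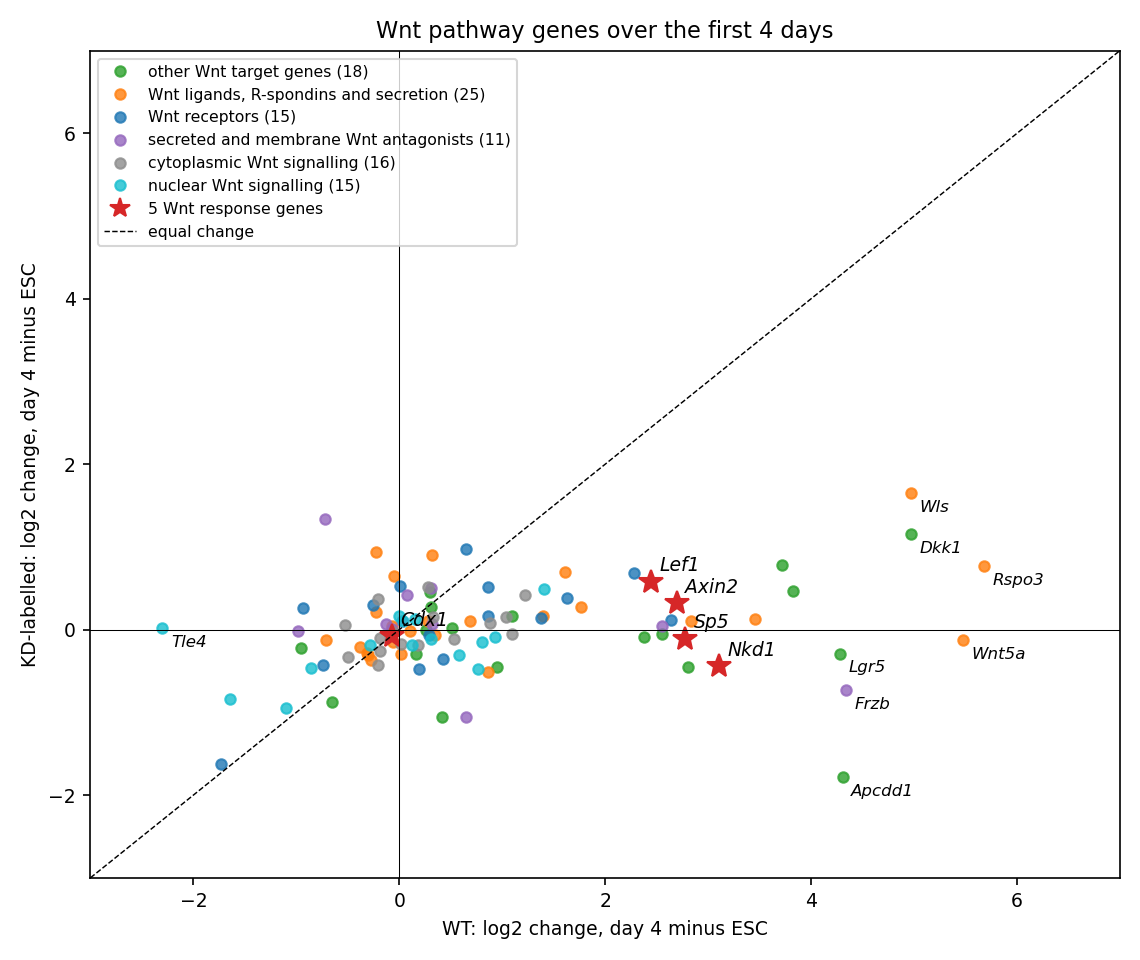
Log2 change from ESC to day 4 in WT (horizontal axis) and in KD-labelled cells (vertical axis) for the measured genes of 6 lists of the Wnt pathway (dots) and for the 5 members (red stars), with a dashed line where both changes are equal. Axin2, Nkd1, Sp5 and Lef1 lie at 2.45 to 3.11 in WT and -0.44 to 0.58 in KD-labelled cells, and Rspo3, Wnt5a, Dkk1 and Wls lie at 4.97 to 5.68 in WT and -0.13 to 1.65 in KD-labelled cells.

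Ligands, R-spondins and the machinery that releases Wnts did not move as a group. Of 25 such genes 7 were lower and 4 higher in KD-labelled cells than in SCR at day 4, with a median of 0.01; 42.4% of all genes were called. Wnt5a, a ligand of mostly non-canonical signalling, was at 9.69 ± 0.28 in WT and 9.91 ± 0.32 in SCR and at 3.51 ± 0.26 in KD-labelled cells (SD, n = 3; difference from SCR -6.4 ± 0.28, SE, limma adjusted p = 4.5e-20). Rspo3, a secreted enhancer of Wnt signalling, differed by -5.06 and Wls, the carrier that brings Wnts to the cell surface, by -4.67. Both also rose in KD-labelled cells from ESC to day 4, by 0.77 and 1.65. Wnt2 differed from WT by -5.64 at day 8, when it was at 9.29 in WT and 3.65 in KD-labelled cells. Wnt3, a canonical ligand, was at 5.71 ± 0.55 in WT, 5.33 ± 0.23 in SCR and 3.02 ± 0.18 in KD-labelled cells at day 4, and Wnt3a, another, at 4.96, 5.04 and 5.11, not called and named after its values were seen.

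Among 15 receptors, 10 were lower and 3 higher than in SCR at day 4, with a median of -0.55. Fzd3, a Frizzled receptor, differed by -3.33 (limma adjusted p = 3.6e-16). Fzd1 differed from WT by -4.72 at day 16, Fzd4 from WT by -3.19 at day 8 and Fzd2 from SCR by -2.93 at day 8. Lrp6, the co-receptor, differed from SCR at day 4 by -0.68 (1.1e-06) and Lrp5 by 0.65 (0.00083); both were named after their values were seen.

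Secreted and membrane antagonists showed no common direction at day 4: 3 of 11 were higher and 3 lower than in SCR. Frzb, a secreted Frizzled-related inhibitor, differed by -4.83 at day 4. Dkk2 differed from WT by -6.01 at day 12 and Dkk3 by -2.88, and Wif1, which binds Wnts, differed from SCR by -2.99 at day 16.

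Of 16 cytoplasmic genes 5 were lower and 3 higher than in SCR at day 4, with a median of 0.02. Gsk3b, the kinase that marks beta-catenin for degradation, differed from SCR by -1.5 at day 16, Csnk1d by -1.5 at day 8 and Amer1 from WT by -1.65 at day 8; Csnk1e was higher than in SCR ESCs by 1.71, where it was at 9.65 ± 0.3 against 7.94 ± 0.57 in SCR and 9.05 ± 0.38 in WT. Ctnnb1, which encodes beta-catenin, was at 12.95 in WT, 13.03 in SCR and 12.86 in KD-labelled cells at day 4, a difference from SCR of -0.17 (limma adjusted p = 0.024) and from WT of -0.09 (0.26). Its RNA level does not measure the protein.

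Of 15 nuclear genes 7 were lower and 6 higher than in SCR at day 4, where 19.9% and 22.6% of all genes were. Tle4, a Groucho-type co-repressor that binds TCF/LEF factors, fell in WT from 10.97 in ESCs to 8.67 and was still at 11.24 in KD-labelled cells, a difference from SCR of 2.69 (limma adjusted p = 8e-15). Tle3 differed from WT at day 4 by -1.6, and Tle1 from SCR at day 12 by -1.43. Tcf7l1, the main TCF repressor of ESCs, was at 8.78 in WT, 8.79 in SCR and 9.19 in KD-labelled cells at day 4 (difference from SCR 0.4, 0.0027). Tcf7l2 was at 7.1, 7.11 and 5.65 (-1.46, 5.1e-07), and Tcf7 was not analysed here.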

How the data were processed

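RNA of 45 samples was hybridised to Affymetrix Mouse 430 2.0 arrays, and the authors deposited log2 signals with 2 decimals. RMA, Partek 6.6 and Affymetrix Expression Console are named per the submitters' processing notes, and the role of each is not given in the sources used here. Values ran from 1.82 to 14.26. The number of arrays, 3 per group, limits the precision. Groups and replicate numbers came from source names and titles; in each line 1 of the 8-day arrays bears an ESC tag in a further label, and it stayed with the 8-day EBs.

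Of 45037 probe sets, 34945 carried 1 gene symbol, 932 several and 9160 none in the platform annotation; only the first kind was tested, with the probe set of the highest mean for each of 18193 genes and no filter on level. The 204 symbols missing from the RefSeq table (GRCm38.p6) were kept as given. All arrays entered a linear model of 15 group means (limma 3.58.1 in R 4.3.3, with data.table at version 1.17.8; 30 residual and 5.17 prior degrees of freedom), with Benjamini-Hochberg adjustment within each comparison and a threshold of 0.05. The procedure was tested on simulated data. SDs are those of 3 arrays.

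The members and the lists of genes were chosen with earlier results of these data known. Genes named besides the members are, for each, the 5 with the highest correlation of group means; of each pathway list up to 4 called genes with the largest difference between lines; and Ctnnb1, Tcf7l1, Tcf7l2 and Tcf7; others are said to be named after their values were seen. The alternatives were scaling (median centring, cyclic loess), a filter on level, the choice of probe set, a replicate block, fewer arrays in the fit, a trended prior, and leaving out each replicate; leaving out each single array and the primed epiblast list were added after seeing the data. Same-numbered arrays deviated together (every correlation over 0.1) in 3 of 15 comparisons of lines, all SCR against WT, with correlations of -0.3 to 0.48 over all; labels do not say that numbers mark a shared culture.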

Additional observations from a re-analysis of the deposited data

Results flagged for a closer look

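The KD-labelled difference from SCR changed over the 5 stages for 4 members by limma's moderated F test: F was 17.3 for Axin2 (adjusted p = 3.7e-07), 38.2 for Nkd1 (3.9e-11), 42.5 for Sp5 (9.8e-12) and 12.1 for Lef1 (1.1e-05). The change from ESC to day 4 also differed between lines. Against SCR it was smaller in KD-labelled cells by limma, with a difference of -1.38 for Axin2 (adjusted p = 5.9e-06), -3.7 for Nkd1 (1.3e-11) and -1.45 for Sp5 (0.0021) on the log2 scale; the Sp5 call was lost without the third array of every group (-1.15, 0.087). Against WT it was -2.38 for Axin2 (6.8e-11), -3.55 for Nkd1 (3.7e-11), -2.89 for Sp5 (5.4e-08) and -1.87 for Lef1 (0.0023), the last lost without the first (-1.81, 0.068) or the third (-1.26, 0.088) array of every group. Both comparisons use the same KD-labelled arrays. With 3 arrays per group, single arrays far from the others of a group were not tested.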

How the results depend on the processing

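At day 4 the calls of Axin2, Nkd1, Sp5 and Lef1 held, in the same direction against SCR and against WT, in all 16 to 17 alternatives run on them apart from the further probe sets. The log2 differences from SCR then ranged from -1.22 to -0.65 for Axin2, -3.81 to -1.47 for Nkd1, -3.22 to -3.02 for Sp5 and -2.79 to -2.42 for Lef1. The fit with the replicate block changed no call of a member and left 4 members called at day 4 against SCR. Of 2844 single values under alternatives, 182 differed in sign with neither value called.

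Directions of called values turned only under further probe sets. For Axin2, 1421341_at gave -0.05 for KD minus WT at day 12, -0.04 for WT from day 12 to 16 and -0.14 from ESC to day 16, and -0.51 for SCR from ESC to day 16, where the probe set used was not called. For Nkd1, 1429507_at gave 0.02, 0.02 and 0.26 against SCR at days 8, 12 and 16, 0.09 and 0.14 against WT at days 8 and 16, and -0.27 and -0.26 for WT and SCR from ESC to day 16. For Nkd1, 1440446_at gave 0.04, 0.23 and 0.44 against SCR at days 8, 12 and 16, 0.15 against WT at day 16 and -0.31 for SCR from ESC to day 16. The cause was not tested.

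With only genes above the median level, 2 members were tested (Axin2 and Lef1), so counts of called members were 0 to 2 by construction: 2 against SCR and WT at day 4, in both control steps around day 4, and in the change from ESC to day 4 against WT; 1 against SCR in ESCs and at days 8 and 12, against WT at day 12, in the change against SCR, and in WT and SCR from ESC to day 16; and 0 against SCR at day 16. Against WT at day 16 the count rose from 1 to 2 with centring, with loess and with only the arrays compared; against SCR at day 16 it fell from 2 to 1 with loess. Averaging probe sets took WT from day 12 to 16 from 1 to 0. With only the arrays compared, the counts became 0 for SCR against WT in ESCs and at day 16 and for WT from day 12 to 16; 4 against WT at day 8; 2 for KD-labelled cells from day 4 to 8; and 1 for WT from day 8 to 12 and for KD-labelled cells from ESC to day 4 and from ESC to day 16. The cause was not tested.

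Without single replicates or arrays, counts of called members ranged from 1 to 3 for SCR against WT in ESCs and 0 to 1 at day 16; from 1 to 2 against WT in ESCs and at day 16, and 1 to 3 at days 8 and 12; from 1 to 3 against SCR at days 8 and 12, and 1 to 2 at day 16; from 2 to 3 against SCR and 3 to 4 against WT in the change from ESC to day 4; from 2 to 4 for WT from ESC to day 16 and 3 to 4 for SCR from ESC to day 4; from 4 to 5 for WT and SCR from day 4 to 8; and from 0 to 1 for WT from day 8 to 12 and from day 12 to 16 and for KD-labelled cells from ESC to day 16.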
